A study of Sus scrofa with 24 samples.

Results

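The genes described here encode enzymes of conjugation, the step in which the liver couples a foreign or endogenous compound to a soluble group. They were chosen by symbol in the array's annotation as the glutathione S-transferases (GST), the microsomal GSTs (MGST), the UDP-glucuronosyltransferases (UGT) and the sulfotransferases (SULT). The choice gave 15 of 13755 named genes, carried by 27 probe sets, with the probe set of the highest mean over the arrays used for each gene. They comprised 7 GST genes (GSTA1, GSTA4, GSTK1, GSTM3, GSTO1, GSTT1 and GSTZ1), 3 MGST genes (MGST1, MGST2 and MGST3) and 5 SULT genes (SULT1A1, SULT1E1, SULT2A1, SULT2B1 and SULT4A1). No named gene was a UGT, so glucuronidating enzymes were not analysed here.

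GST enzymes add glutathione to electrophilic compounds, and several of them also reduce peroxides or catalyse steps of intermediary metabolism. SULT enzymes transfer a sulfate group from an activated donor to phenols, steroids and bile acids. In the mature liver both reactions, together with glucuronidation, make compounds ready for export into bile or blood. The fetal liver is also a blood-forming organ, so its RNA comes from hepatocytes, erythroid cells and other cell types.

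Liver RNA of 24 pig fetuses of 63 dpc (days post-conception) was hybridized to Affymetrix Snowball arrays, 1 array per fetus. All fetuses were F2 animals from a cross of German Landrace (DL) and Pietrain (Pi). Sibling pairs that were growth-restricted (IUGR) or appropriate for gestational age (AGA) had been selected, but the labels give a fetus number only, so growth groups, sexes and litters were not compared. Associations over the livers below cannot be told apart from differences between growth groups, sexes or litters. Levels are log2 values after robust multichip averaging (RMA), given as the range and median over the livers, and because siblings were included the p-values below are approximate.

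The 24 array medians lay between 2.81 and 2.89. The 69 background control probe sets had a median of 1.55 and a 95th percentile of 6.52 to 6.89 on the different arrays, so levels between 6 and 7 overlapped with the upper background. A gene passed the level filter when it reached 6 in at least 18 arrays. Of 10 listed hepatocyte markers, 9 passed this filter, as did 9 of the 12 listed erythroid markers, and the highest correlation between any pair of arrays was 0.9874. No biliary marker passed. Fewer cells of a type and less RNA per cell cannot be told apart in whole tissue.

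Of the 15 genes, 8 passed the level filter (53.3%), compared with 24.6% of all named genes. They were 6 GST and 2 MGST genes, and no SULT gene was among them. MGST1, a membrane-bound transferase with peroxidase activity, had the highest signal, between 8.96 and 9.87 (median 9.22). MGST3, a related membrane enzyme, ranged from 8.37 to 8.92 (median 8.65). GSTO1, an omega-class enzyme that reduces dehydroascorbate, lay between 7.85 and 8.68 (median 8.27). These 3 genes stayed above the 95th percentile of the background on every array. Signals of different probe sets are not scaled to transcript length, so this order is one of array signals and not of transcript amounts.

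GSTZ1, the maleylacetoacetate isomerase of tyrosine breakdown, ranged from 7.06 to 8.20 around a median of 7.90. GSTK1, a kappa-class enzyme of mitochondria and peroxisomes, ranged from 6.99 to 7.98 around 7.61. Both also exceeded the 95th percentile of the background in all 24 livers. GSTT1, of the theta class, had a median of 6.84. GSTA4, an alpha-class enzyme that acts on products of lipid peroxidation, had a median of 6.77, and GSTA1, its alpha-class relative, one of 6.55. GSTT1 and GSTA4 exceeded this background limit in 14 livers each and GSTA1 in 9, so their low levels are the least certain.

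The other 7 genes had low signals. SULT1A1, which sulfates phenols, was nearest to the filter, with levels from 4.68 to 6.15, a median of 5.83 and 2 livers at or above 6. GSTM3, of the mu class, lay between 3.71 and 5.40 (median 4.50). SULT4A1, a sulfotransferase best known from brain, lay between 3.80 and 4.81 (median 4.12). Neither reached the limit in any liver. SULT2A1, the sulfotransferase of hydroxysteroids and bile acids, had the widest range, from 1.58 to 5.14 (median 3.51), and its highest livers were fetuses 281 and 303. MGST2 spread from 1.27 to 4.41 (median 2.89). SULT2B1, which sulfates cholesterol, had a median of 1.89, and SULT1E1, the estrogen sulfotransferase, one of 1.20, and all 24 livers had SULT1E1 levels of 1.65 or less. All 7 lay below the 95th percentile of the background in every liver, so their presence could not be told from background at these levels.

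**Figure D1:**
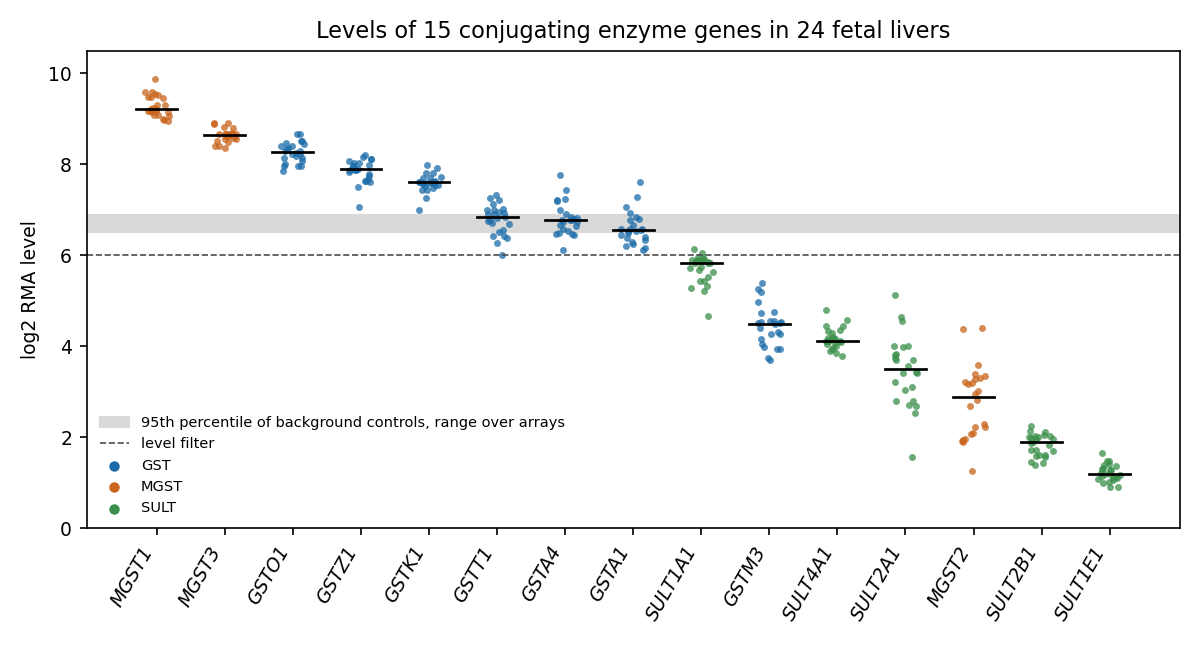
Log2 RMA level (vertical axis) of the 15 genes in the 24 livers, 1 point per liver, with the median as a bar and the family as the colour. The dashed line is the level filter at 6 and the grey band the range over arrays of the 95th percentile of the background controls. The levels of MGST1, MGST3, GSTO1, GSTZ1 and GSTK1 lie above the band, those of GSTT1, GSTA4 and GSTA1 spread across it, and the SULT genes lie below it.

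The difference between the highest and the lowest liver was over 2-fold for 4 of the 8 filtered genes, GSTA4, GSTA1, GSTT1 and GSTZ1, compared with 18.8% of all 3379 filtered genes. The median span was 2.09-fold for the 8 genes and 1.64-fold for all filtered genes. GSTA4 had the widest span at 3.17-fold, followed by GSTA1 at 2.78-fold, GSTT1 at 2.5-fold and GSTZ1 at 2.2-fold. The narrowest was MGST3 at 1.46-fold. The spans of GSTA4, GSTA1 and GSTT1 include levels within the upper background.

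Single livers set several of these spans. In GSTA4 the lowest liver, fetus 311 at 6.12, was followed by fetus 340 at 6.46, and the highest, fetus 281 at 7.78, stood above fetus 297 at 7.43. In GSTZ1 fetus 274 had 7.06 and the next lowest, fetus 352, had 7.50, and without fetus 274 the span no longer exceeded 2-fold. In GSTK1 fetus 340 had 6.99 and the next lowest had 7.27. Between the second-highest and second-lowest livers only GSTA1 differed by more than 2-fold, at 2.18-fold, as did 7.37% of all filtered genes.

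The livers at the ends differed from gene to gene. Fetus 281 had the highest levels of GSTA1, GSTA4 and GSTO1 and was among the top 3 livers in 5 of the 8 genes. Fetus 297 was highest in GSTT1 and GSTZ1. Fetus 340 was lowest in GSTA1 and GSTK1, and fetus 274 was lowest in GSTZ1 and MGST1. Fetus 311 combined the highest MGST1 with the lowest GSTA4 and GSTO1. Fetuses 272, 281 and 303 were above the median in 7 of the 8 genes, and fetus 311 in only 1. No liver was above or below the median in all 8 genes.

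**Figure D2:**
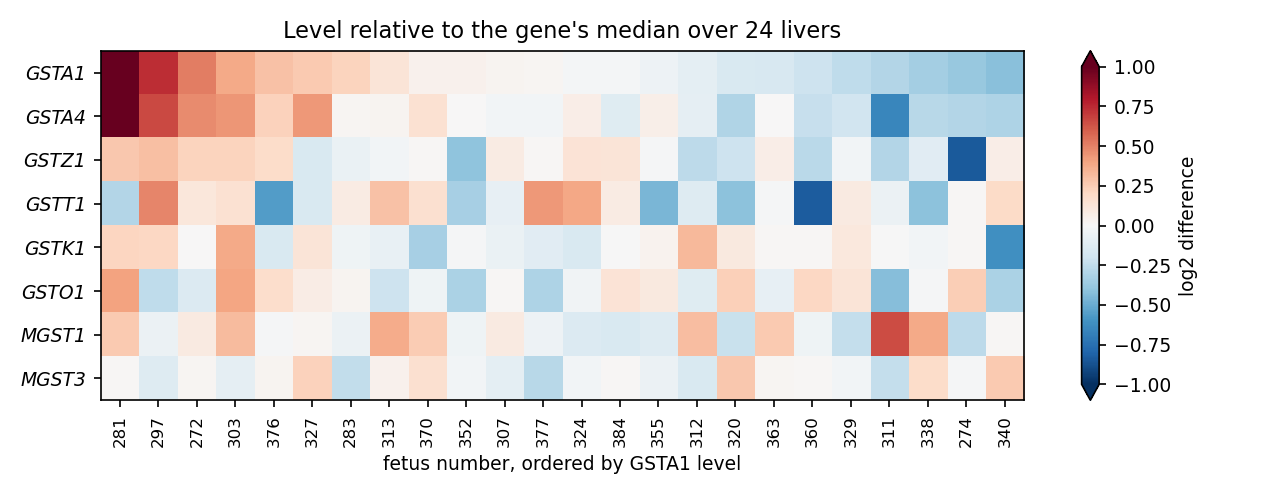
Log2 level of the 8 filtered genes (rows) relative to each gene's own median, in the 24 livers (columns), ordered by GSTA1; colours stop at a difference of 1. GSTA1 and GSTA4 follow nearly the same order of livers, GSTZ1 does so in part, and MGST1 is highest in fetus 311.

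Whether the enzymes varied together was examined over the 28 pairs of filtered genes. The median Pearson correlation was 0.102, beside 0.0437 over the 5707131 pairs of all filtered genes, and 14 of the 28 pairs lay within 0.2 of 0. Leaving out 1 liver at a time gave a jackknife standard error of 0.113 for the median of the 8 genes, so it could not be told from the median of all genes. In 3 pairs (10.7%) r exceeded 0.5, compared with 5.23% of all pairs. These 3 pairs joined GSTA1, GSTA4 and GSTZ1, and the lowest r, between GSTO1 and GSTT1, was -0.421.

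**Figure D3:**
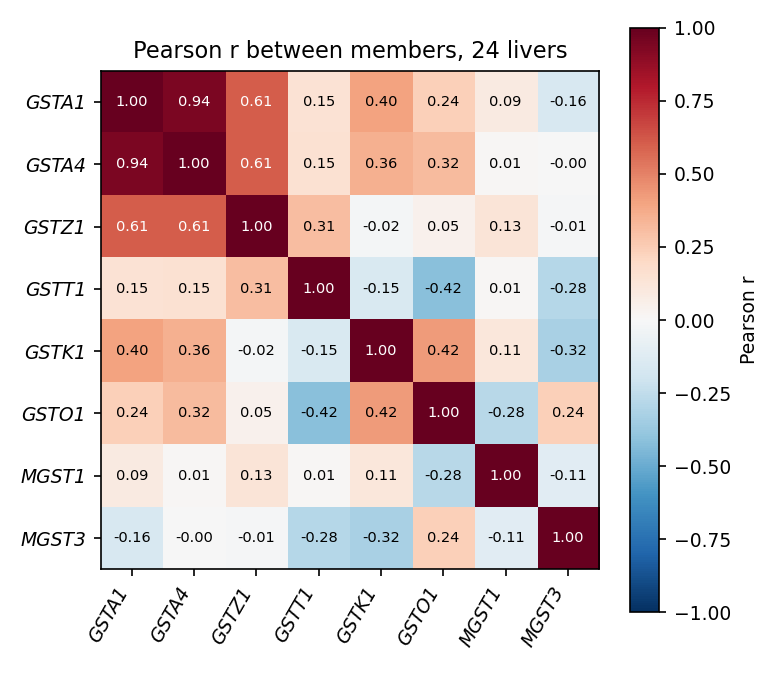
Pearson correlation over 24 livers between the levels of each pair of the 8 filtered genes, red for positive and blue for negative. GSTA1, GSTA4 and GSTZ1 form the only block above 0.5, led by 0.941 for GSTA1 with GSTA4.

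GSTA1 and GSTA4, the alpha-class pair, rose and fell together. In GSTA1 the lowest, median and highest levels were 6.13, 6.55 and 7.61, and in GSTA4 they were 6.12, 6.77 and 7.78. Fetuses 281, 297 and 272 had the 3 highest levels of both genes, with 7.61, 7.29 and 7.06 in GSTA1 and 7.78, 7.43 and 7.24 in GSTA4. The Pearson r was 0.941 and Spearman's rho 0.91, each with a p of 1e-05 in two-sided permutation tests, the smallest that 100000 permutations can give. When the 2 livers with the most extreme GSTA1 levels relative to the median were left out, r was 0.884. In a linear model across all filtered genes (limma), GSTA4 rose by 0.95 ± 0.08 (SE) on the log2 scale per unit of GSTA1, with an adjusted p of 5.42e-09, and the call held without any 1 of the 24 livers. In the pig reference annotation 3 entries, 2 of them coding and all without a gene name, lie between both genes on the chromosome. The probe sequences were not used here, so whether the probe set of one gene also detects the other was not tested.

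Across 3378 other filtered genes, 26 (0.77%) were associated with GSTA1 in limma at an adjusted p below 0.05, 24 rising with it and 2 falling. GSTA4 was the only one of the other 7 enzymes among them. FAH, the enzyme that ends tyrosine breakdown, followed with an r of 0.779, a rho of 0.618, an r of 0.624 without the 2 farthest livers and an adjusted p of 0.00528. MAT1A, which makes the methyl donor S-adenosylmethionine in liver, had an r of 0.745 and an adjusted p of 0.0198. SEPX1, a methionine sulfoxide reductase, had an r of 0.749 and an adjusted p of 0.0235. ZCCHC24 had an r of 0.744 and an adjusted p of 0.0316. FAH, MAT1A, SEPX1 and ZCCHC24 all had their highest level in fetus 281, and none of these 4 calls held without that liver. The calls of SEPX1 and ZCCHC24 were also lost without fetus 272, 274 or 297. SEPX1 ranged from 6.12 to 6.65 and ZCCHC24 from 6.40 to 6.99, so their levels, like most of GSTA1's, overlap with the upper background. The 2 genes that fell were SNCG, a synuclein, at an r of -0.653 with an adjusted p of 0.0436, and HES7, a transcriptional repressor, at -0.647 with 0.0462. Both calls lie at the threshold, and SNCG kept its call in 9 and HES7 in 8 of the 24 fits that each left out 1 liver, with adjusted p-values of up to 0.335 and 0.488. The levels of SNCG, 5.54 to 6.67, also overlap with the background. HMGB2, a chromatin protein of dividing cells, had an r of -0.655 with an adjusted p of 0.0756.

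With GSTA4, 16 genes (0.474%) were associated in limma, all rising with it, and GSTA1 was the only other enzyme. FSTL1, a secreted glycoprotein of mesenchymal cells, ranged from 6.48 to 7.70 around 6.94 and had an r of 0.753 with GSTA4 and an adjusted p of 0.00885. BCMO1, the enzyme that cleaves beta-carotene, had an r of 0.75 and the same adjusted p. The calls of FSTL1 and BCMO1 held without any 1 liver. SLC31A1, a copper importer, had an r of 0.767 with an adjusted p of 0.0295, and SPATS2L had 0.747 with 0.0159. The call of SLC31A1 was lost without fetus 272, 281, 303 or 311, and that of SPATS2L without fetus 297 or 311. The negative side, led by HES7 at -0.624 with an adjusted p of 0.0686, held no call. The counts for GSTA1 and GSTA4 rest on few livers. Without fetus 281 they were 2 and 8, without fetus 297 they were 8 and 7, and without fetus 327 they were 45 and 35.

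**Figure D4:**
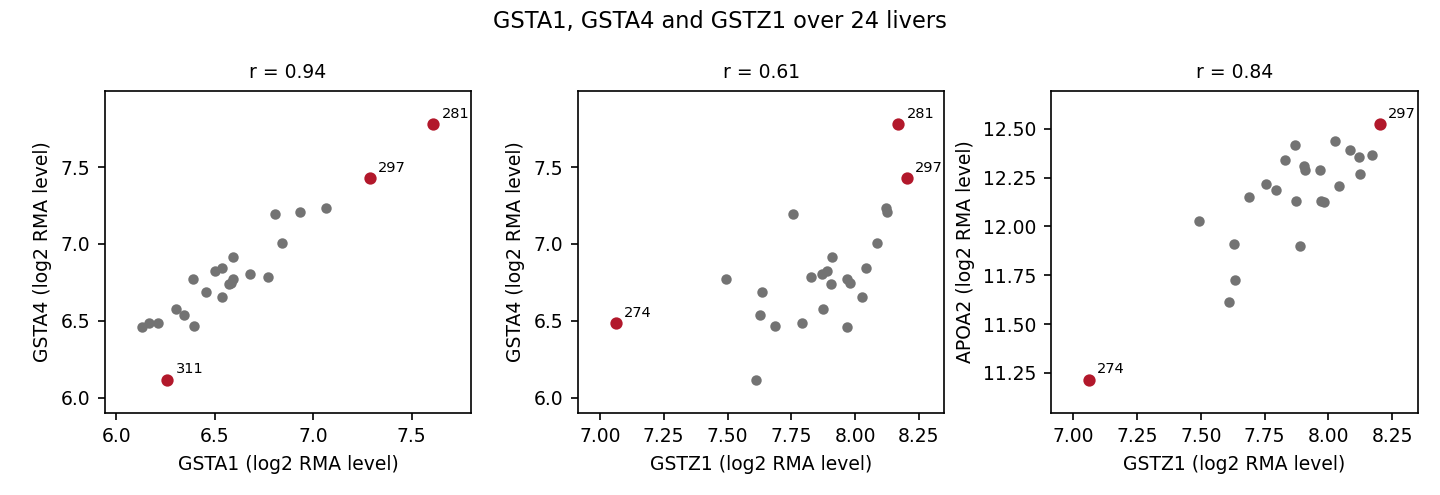
Log2 RMA levels in 24 livers, 1 point per liver, of GSTA4 against GSTA1, GSTA4 against GSTZ1 and APOA2 against GSTZ1; labelled points are fetus numbers. Fetuses 281 and 297 are high in all 3 enzymes, and fetus 274 is far below the other livers in GSTZ1 and APOA2.

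At adjusted p below 0.05 in limma, 100 genes (2.96%) were associated with the level of GSTZ1, 84 rising and 16 falling. Differences in this number between enzymes were not tested, and without fetus 327 it was 103 for GSTZ1 and 188 for GSTK1. GSTA1 and GSTA4 were both among them. GSTA1 with GSTZ1 had an r of 0.608 and a rho of 0.597. Without the 2 livers farthest in GSTZ1 r was 0.663, and without the 2 farthest in GSTA1 it was 0.524. The adjusted p of GSTA1 in the limma fit on GSTZ1 was 0.0326. GSTA4 with GSTZ1 had an r of 0.607, a rho of 0.662 and the same adjusted p. Each of both calls was lost without fetus 272, 281, 297 or 303, and that of GSTA1 also without fetus 274. The count was 29 without fetus 274 and 65 without fetus 281.

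The highest r with GSTZ1 was that of APOA2, an apolipoprotein of high-density lipoprotein, which ranged from 11.22 in fetus 274 to 12.52 in fetus 297 with a median of 12.21. Its r with GSTZ1 was 0.844, its rho 0.695, its r without the 2 farthest livers 0.736 and its adjusted p 0.000217. SORD, the sorbitol dehydrogenase, had an r of 0.82 and a rho of 0.802. ANPEP, an aminopeptidase of the cell surface, had an r of 0.811, and CIDEB, a protein of lipid droplets and lipoprotein assembly, had 0.794. The calls of APOA2, SORD, ANPEP, CIDEB and the gene listed as 0610007P14RIK held without any 1 liver, with adjusted p-values of at most 0.0474.

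The genes with the most negative r were TAF15, an RNA-binding protein, at -0.765, HMGB2 at -0.73, the phosphatase PTP4A2 at -0.701, the nucleolar helicase DDX21 at -0.672 and the hexokinase HK1 at -0.662. Their adjusted p-values in limma ran from 0.00878 to 0.0224. HK1 ranged from 5.75 in fetus 297, the liver with the highest GSTZ1, to 6.81 in fetus 311. All its levels lie within or below the range of the background's 95th percentile, 6.52 to 6.89. Only the call of HK1 held without any 1 liver, and the other 4 were lost without fetus 274. Without the level filter only TAF15 kept its call, and HK1 had an adjusted p of 0.0562 in limma.

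GSTZ1 acts between HGD and FAH in tyrosine breakdown, and these neighbours in the pathway were looked at after FAH had appeared beside GSTA1. HGD, which forms the substrate of GSTZ1, ranged from 6.79 in fetus 274 to 8.45 with a median of 8.08. It rose with GSTZ1 with an r of 0.782, a rho of 0.606, an r of 0.694 without the 2 farthest livers and an adjusted p of 0.000722, which was 0.134 without fetus 274. FAH, which takes up the product, had an r of 0.536 with GSTZ1 and an adjusted p of 0.0815. TAT, the first enzyme of the pathway, had an r of -0.292 with an adjusted p of 0.442, and its highest level, 10.73, was in fetus 311.

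GSTZ1 was the only enzyme with more than 1 probe set past the filter, so only its level over livers could be compared within the gene at levels past the filter. Its second probe set had an r of 0.867 with the one used, a rho of 0.799 and an r of 0.828 without the 2 farthest livers, with a permutation p of 1e-05 for r and rho. The further probe sets of GSTA1, GSTO1, GSTT1 and MGST1 were far below the filter. Their medians were 1.16 and 1.33 for GSTA1, 1.42 and 1.65 for GSTO1, 3.29 for GSTT1 and 4.44 for MGST1. The background controls had a median of 1.55. The r of these further probe sets with the probe set used ranged from -0.229 to 0.332. The results for GSTA1, GSTO1, GSTT1 and MGST1 therefore rest on a single probe set per gene, which the others do not back. For SULT2A1, whose probe sets were both below the filter, r was 0.439 with a permutation p of 0.0328.

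GSTK1 had 7 associated genes (0.207%) in limma, 4 rising and 3 falling, all with an adjusted p of 0.0476. The receptor gene ERBB3 led at an r of 0.741, which was 0.475 without the 2 farthest livers, with MYCT1, the lysosomal hexosaminidase gene HEXA and IGFBP2, a carrier of insulin-like growth factors, also rising. DNAJC9, a histone chaperone, USP9X, a deubiquitinase, and EAF2, a transcription elongation factor, fell, at -0.725, -0.72 and -0.68. These calls lie at the threshold, and the count was 0 without any 1 of 13 livers (fetuses 272, 281, 283, 303, 307, 312, 313, 324, 329, 338, 355 and 370 and the liver labelled Le377) and 188 without fetus 327. The medians of MYCT1, DNAJC9 and EAF2, 6.61, 6.87 and 6.79, overlap with the upper background. None of the other 7 enzymes was called with GSTK1.

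GSTO1, the GST gene with the highest signal, was associated with 1 gene (0.0296%). This was APOM, an apolipoprotein secreted by hepatocytes, which ranged from 8.49 in fetus 340 to 9.39 in fetus 281 around a median of 8.86. Its r was 0.78, its rho 0.763, its r without the 2 farthest livers 0.722 and its adjusted p in limma 0.0238. The call was lost without fetus 274, 281, 297, 303 or 340. PSMB7, a proteasome subunit, and RHEB, a small GTPase, followed at an r of 0.734 and 0.715 with adjusted p-values of 0.159 and 0.147. Without fetuses 311 and 312, the livers at the end of the first principal component, 135 genes were associated with GSTO1.

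No gene was associated with GSTT1 at an adjusted p below 0.05 in limma (0%), while 260 of 3378 had an unadjusted p below 0.05. The 5 genes with the most negative r were LGALS9, a galectin, and 4 genes of class I antigen presentation, SLA-11, SLA-2, SLA-1 and B2M, the light chain of these molecules. LGALS9 had an r of -0.704, a rho of -0.629, an r of -0.591 without the 2 farthest livers and an adjusted p of 0.0986. The values of r for SLA-11, SLA-2, B2M and SLA-1 were -0.68, -0.661, -0.627 and -0.621, with adjusted p-values of 0.186 to 0.262. Without the 2 farthest livers they were -0.523, -0.686, -0.478 and -0.526. The positive side was of similar size. CLC-5 led it at an r of 0.695 with an adjusted p of 0.186. SLC44A1, SUSD2, SNX27 and MBD5 followed at 0.633, 0.631, 0.616 and 0.605, with adjusted p-values of 0.262 to 0.515. Fetus 360, with the lowest GSTT1 at 6.01, had the highest LGALS9, SLA-11, B2M and SLA-1. Its B2M level was 10.60 against a median of 9.34.

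MGST1 was associated with 6 genes (0.178%) in limma, all rising with it. C1R and C1S, proteases of the complement system, had the widest ranges. C1R ran from 5.58 in fetus 329 to 9.54 in fetus 311 with a median of 6.58, and C1S from 5.41 to 9.07 (median 7.20). Their r with MGST1 was 0.724 and 0.717, which fell to 0.576 and 0.577 without the 2 farthest livers. HAMP, the iron hormone hepcidin, ranged from 4.87 to 8.35 (median 6.73) and had an r of 0.708. The lowest levels of C1R, C1S and HAMP lie below the filter and within the background. The medians of C1R and HAMP overlap with the upper background, so these ranges rest in part on background signal. F5, the coagulation factor, had an r of 0.775, a rho of 0.805 and an r of 0.773 without the 2 farthest livers. C1R, C1S, HAMP and F5 each had an adjusted p of 0.0185, and the other 2 genes were SPARC, a matrix protein, at 0.022 and ID2, a transcriptional inhibitor, at 0.0316. All 6 were highest in fetus 311, and without fetus 274, 311 or 329 none was called. The granulocyte marker score was also highest in fetus 311, at 2.97, and MGST1 had an r of 0.537 with that score and an adjusted p of 0.0536. Here rho was 0.264, and r was 0.108 without the 2 livers farthest in the score. The part of granulocytes in these associations was not tested.

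**Figure D5:**
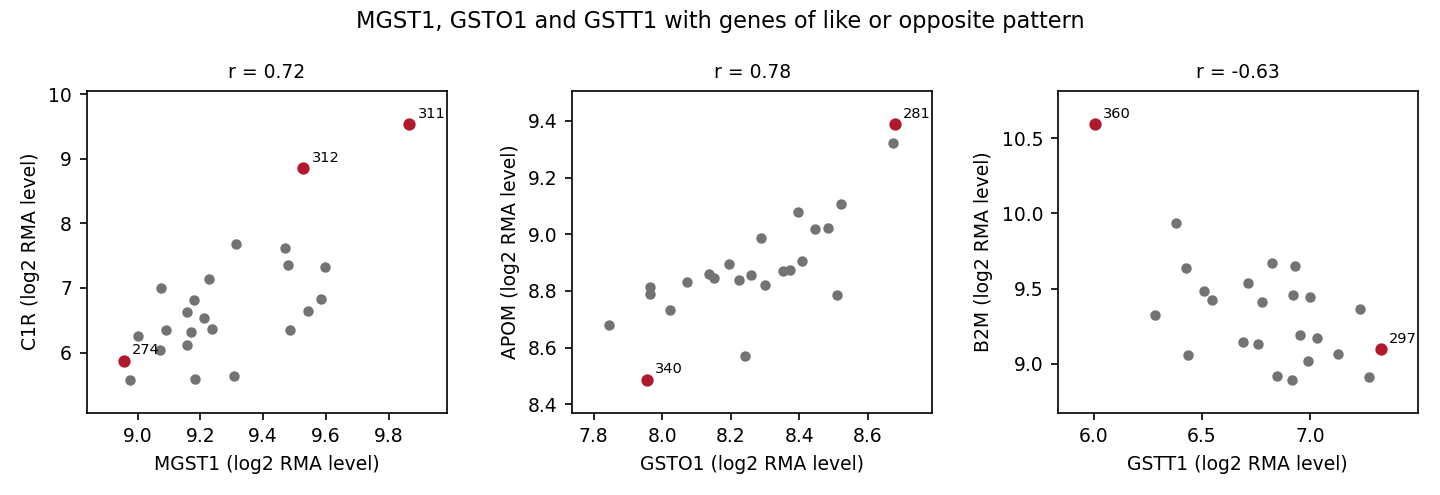
Log2 RMA levels in 24 livers, 1 point per liver, of C1R against MGST1, APOM against GSTO1 and B2M against GSTT1; labelled points are fetus numbers. Fetuses 311 and 312 have the highest C1R, fetus 281 has the highest GSTO1 and APOM, and fetus 360 has the lowest GSTT1 with the highest B2M.

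MGST3, the enzyme with the narrowest range, was associated with 1 gene (0.0296%), LOC100154508, at an r of 0.793 and an adjusted p of 0.00957 in limma, which was lost without fetus 320. YWHAH, TUBA1A, UBR7 and UROS, an enzyme of haem synthesis, followed in r, at 0.704 to 0.78, with adjusted p-values of 0.082 to 0.137.

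Marker scores, the mean standardized level of the filtered markers of a cell type, were set against each enzyme. MGST3 rose with the erythroid score, which 13.3% of all filtered genes did or opposed in limma. Its r was 0.558, its rho 0.495 and its adjusted p 0.0458. The summed level of the 10 named erythroid markers ran from 91.6 to 97.8. The call of MGST3 held without 8 single livers and was lost without any of the other 16, so it lies at the threshold. Without fetuses 311 and 312 its adjusted p was 0.154, and the enzyme called with the erythroid score was then GSTA1, which fell with it at an adjusted p of 0.0489, while 8.32% of all genes were called. GSTK1 rose with the endothelial score, with an r of 0.623, a rho of 0.49 and an adjusted p of 0.0257, and 11.2% of all genes were called with this score. That r was 0.433 without the 2 farthest livers, and the call was lost without fetus 303, 312 or 340 alone and without fetuses 311 and 312.

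No enzyme was called with the granulocyte score (8.08% of genes), the hepatocyte score (1.24%) or the score of stellate and mesenchymal cells (0.237%). At an unadjusted p below 0.05, 791, 585 and 271 of 3379 genes passed with these scores. GSTA1 and GSTA4 were nearest to a call with the stellate and mesenchymal score, at an r of 0.643 and 0.632 with adjusted p-values of 0.0778 and 0.0903. This score, from 6 collagen, matrix and contractile genes, was highest in fetus 297 at 2.15 and lowest in fetus 274 at -1.61, and the summed level of the 8 named markers ran from 45.6 to 62.7. Without fetuses 311 and 312 both enzymes were called, at adjusted p-values of 0.0192 and 0.0201, along with 0.533% of all genes. The part of these cells in the shared pattern of GSTA1 and GSTA4 was not tested. With the hepatocyte score GSTA4 had an r of 0.493 and GSTZ1 of 0.456, with adjusted p-values of 0.136 and 0.183.

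Genes that supply, regulate or follow conjugation were taken from 5 lists. Beside the counts below, 24.6% of all named genes passed the filter, and 18.8% of all filtered genes spanned over 2-fold. Of the genes of cofactor supply, 8 of 11 named passed the filter and 4 spanned over 2-fold, with UGDH, which makes UDP-glucuronic acid, at 2.93-fold from 6.84 to 8.39. GCLM and GSS, of glutathione synthesis, also spanned over 2-fold. The lowest levels of UGDH, GCLM and GSS, 6.84, 6.20 and 5.56, all lie within the background. Of the regulators, 5 of 13 passed and none spanned over 2-fold. NFE2L2, the main activator of GST genes in the oxidative stress response of mammals, ranged from 7.88 to 8.44 around 8.18. Of the phase I enzymes, which oxidize or hydrolyse compounds before conjugation, 14 of 40 passed and 7 spanned over 2-fold. Of the other conjugating and hydrolysing enzymes 7 of 11 passed and 3 spanned over 2-fold, and of the transporters 7 of 12 passed and 4 did.

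Only with GSTZ1 were genes of these lists called in limma, 6 of the 41 that passed the filter, all rising with it, beside 2.96% of all genes. They were SLC35D1, which carries UDP-glucuronic acid into the endoplasmic reticulum, with an r of 0.769, the cytochrome P450 gene CYP2C33 with 0.76, the uptake transporter SLCO2B1 with 0.722, NAT8, which acetylates cysteine conjugates derived from glutathione conjugates, with 0.655, and the epoxide hydrolases EPHX2 with 0.652 and EPHX1 with 0.607. CYP2C33 ranged from 10.19 in fetus 274 to 11.19 around a median of 10.84, and its adjusted p was 0.0016. NAT8 ranged from 5.06 in fetus 274 to 7.50 around 6.86, with an adjusted p of 0.0126, and its lowest level lies below the filter and within the background. SLC35D1 ranged from 4.98 in fetus 274 to 6.64 around 6.13, so all its levels overlap with the background. Without the 2 farthest livers r ran from 0.343 for NAT8 to 0.63 for CYP2C33, with 0.542 for SLC35D1. Only the call of CYP2C33 held without fetus 274, in which SLC35D1, EPHX2, NAT8 and SLCO2B1 were also at their lowest. The adjusted p-value of EPHX1, 0.0493, lay at the threshold. With GSTA1, GSTA4, GSTK1, GSTO1, GSTT1, MGST1 and MGST3, none of the 41 genes was called. At an unadjusted p below 0.05 in limma the counts ran from 3 of 41 with GSTK1 to 9 of 41 with GSTA1. Of all 3378 genes, 664 passed with GSTK1 and 515 with GSTA1. Whether the shares differ was not tested.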

How the data were processed

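Liver RNA of 24 pig fetuses was hybridized to 24 Affymetrix Snowball arrays. Quality control ran in GCOS 1.1.1, and the authors used Expression Console to compute the deposited log2 values by RMA, which corrects background, makes array distributions alike and summarizes probes, and they also computed detection calls, which were not used here. The deposited log2 table holds 47845 probe sets. No genome build of the probes is named in the labels or methods, coordinates are therefore left out, and no sequence table was used. Arrays have no read depth, and their number limits the precision.

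The platform annotation gave symbols for 26426 probe sets. Genes with a log2 level of at least 6 in at least 18 arrays were kept. The enzymes and the gene lists were chosen with earlier results of these data known. Each filtered gene was regressed on the level of an enzyme with limma 3.58.1 in R 4.3.3 (lmFit, eBayes), with Benjamini-Hochberg adjustment over all filtered genes and a threshold of 0.05. The fits use 24 livers without covariates. Pearson's r and Spearman's rho had two-sided permutation tests with 100000 resamples, and r was repeated with the 2 livers of the most extreme enzyme levels left out. The limma step was tested on simulated data with independent genes and independent livers. That test therefore does not cover siblings or correlated genes.

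All filtered enzymes are named. For each, genes are named from the 5 most positive and 5 most negative in r, and several of these that were not called are left out. The genes of the related lists past the threshold are also named. The planned predictors were the brightest gene of each family, GSTO1 and MGST1, and the other 6 enzymes as predictors, the tyrosine enzymes, IGFBP2, SPARC and ID2 were added after seeing the data. Alternatives were limits of 5 and 7, no filter, the background percentile, the mean of all probe sets, the most variable probe set, aligned array medians, the first principal component, other correlation measures, leaving out each liver, or fetuses 311 and 312, and adjustment over all 8 predictors. Python 3.11.15 with numpy 2.4.6, pandas 2.3.3, scipy 1.17.1 and matplotlib 3.10.9 was used.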

Additional observations from a re-analysis of the deposited data

How the results depend on the processing

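The filter decided which enzymes count. With a limit of 7, or above the background percentile, 5 passed, as did 11.7% and 14.6% of all genes, and 1 of them spanned over 2-fold at the limit of 7, beside 14.8% of all. The enzymes over 2-fold numbered 9 of 15 without a filter (36.9% of all genes), 7 of 8 at 1.5-fold (70.7%) and 1 of 8 between the second-highest and second-lowest livers (7.37%), and 3 to 4 when each liver was left out. The median correlation between enzymes was 0.0111 to 0.152 under the alternatives and 0.0216 to 0.14 with each liver left out.

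The association of GSTA1 with GSTA4 held under each alternative that kept both genes except the mean of all probe sets of GSTA1, 2 of whose 3 probe sets lie below the filter. With aligned array medians the genes associated were 47 for GSTA1, with 2 enzymes among them, 37 for GSTA4, 0 for GSTK1 and 5 for MGST3, and 1 enzyme was called with the hepatocyte score. With the first principal component as a covariate they were 60 for GSTA1, 35 for GSTA4, 0 for GSTK1, 4 for GSTO1, 203 for GSTZ1 and 0 for MGST1. With a limit of 5 they were 0 for GSTK1 and 0 for GSTO1, and 2 enzymes were called with the endothelial score. With a limit of 7, which removes GSTA1, GSTA4 and GSTT1 from the genes tested, they were 8 for GSTA1, 8 for GSTA4, 23 for GSTK1, 1 for GSTT1 and 6 for MGST3, and 0 enzymes were called with GSTA1, GSTA4 or GSTZ1. With no filter they were 7 for GSTA1, 7 for GSTA4, 0 for GSTK1, GSTO1, MGST1 and MGST3 and 2 for GSTT1, and 0 enzymes were called with GSTZ1. With the mean of all probe sets they were 0 for GSTA1 (0 enzymes), 8 for GSTA4, 0 for GSTO1, 0 for MGST1 and 3 for MGST3, and 1 enzyme was called with GSTZ1. There the slopes on MGST1 turned to -0.03 for F5 and -0.29 for C1R. MGST1's other probe set is below the filter.

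Without fetuses 311 and 312 they were 42 for GSTA1, 29 for GSTA4, 0 for GSTK1, 135 for GSTO1, 211 for GSTZ1 and 0 for MGST1, and 0 enzymes were called with the endothelial score (0.829% of genes) and 2 with the stellate and mesenchymal score (0.533%), and with the erythroid score GSTA1 was called in place of MGST3. Adjusted over all 8 predictors together they were 17 for GSTA1, 11 for GSTK1, 4 for GSTO1, 3 for GSTT1, 47 for GSTZ1 (0 enzymes) and 7 for MGST3. Leaving out each liver gave 2 to 45 for GSTA1 and 5 to 35 for GSTA4, each with 1 to 2 enzymes, 0 to 188 for GSTK1, 0 to 1 for GSTO1, 0 to 1 for GSTT1, 29 to 129 for GSTZ1 with 0 to 2 enzymes, 0 to 16 for MGST1 and 0 to 38 for MGST3. The causes of these changes were not tested. Of the 270 fits of named pairs under other settings, 191 kept their call. Levels between 6 and 7 overlap with background, and this limits GSTA1, GSTA4 and GSTT1 most. No paired analysis was possible because the labels give no groups.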
